A study of Mus musculus with 23 samples.

Results

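The hippocampus is built from fields that differ in their principal neurons, and 10 genes known to mark these fields were followed through the count table, as a check on dissection and for changes confined to one field. The 10 were found by their symbols in the gene column, out of 55335 genes listed, and were Wfs1, Fibcd1 and Mpped1 for CA1, Rgs14, Amigo2 and Map3k15 for CA2, Iyd for CA3, and Dsp, C1ql2 and Tdo2 for the dentate gyrus. Bulk RNA-seq of whole hippocampus was available from 23 mice in 6 groups. WT mice (C57BL/6J x 129S1) and 3xTg mice were sampled at 8 months without surgery (WT-8M, n = 4, and 3xTg-8M, n = 4), or at 10 months after a 28-day infusion into the lateral ventricle. The infusion carried vehicle, 0.8% DMSO in artificial cerebrospinal fluid (WT-D, n = 4, and 3xTg-D, n = 4), or a stearoyl-CoA desaturase inhibitor (SCDi) at 80 µM in the same vehicle (WT-S, n = 3, and 3xTg-S, n = 4). The 3xTg line carries mutant human APP and tau transgenes under a Thy1 regulatory element that directs expression to neurons. It was compared with a WT hybrid strain and not with littermates, so transgenes and strain background cannot be told apart. All animals were female, and each library came from 1 animal. Sample titles at 8 months end in L.HPP or l.HPP, and those at 10 months in HPP alone. What the L stands for is not stated.

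The circuit runs from the entorhinal cortex to granule cells of the dentate gyrus, whose mossy fibre axons contact CA3 pyramidal neurons, and CA3 in turn projects to CA1. CA2 is a narrow field between CA3 and CA1, known for social memory and for resistance to synaptic potentiation. Each field has its own set of expressed genes, so a tissue block that holds more or less of one field should carry more or less of all its markers together. In bulk tissue, fewer cells of a field and less RNA per cell cannot be told apart.

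Promoter sequence is shown for the 2 members with the largest strain differences, which changed in opposite directions. The windows are the 250 bases before the RefSeq start on GRCm38.p6, 5′ to 3′, and capitals mark matches to the motifs named after them. The C1ql2 window lies at chr1:120340332-120340581 on the plus strand, and the Iyd window at chr10:3540024-3540273 on the plus strand.
C1ql2: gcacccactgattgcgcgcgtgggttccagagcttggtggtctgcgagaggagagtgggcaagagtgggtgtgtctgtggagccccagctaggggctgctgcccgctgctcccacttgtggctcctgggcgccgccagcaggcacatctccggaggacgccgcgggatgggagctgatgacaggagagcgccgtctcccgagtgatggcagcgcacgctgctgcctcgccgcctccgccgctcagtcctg
Iyd: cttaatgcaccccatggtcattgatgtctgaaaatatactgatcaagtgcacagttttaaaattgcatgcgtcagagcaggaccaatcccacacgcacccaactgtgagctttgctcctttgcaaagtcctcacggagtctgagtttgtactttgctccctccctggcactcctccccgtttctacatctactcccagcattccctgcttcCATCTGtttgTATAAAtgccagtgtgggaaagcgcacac
A set of 5 motifs was searched on both strands, namely CAGATG (the E-box form used by NEUROD factors), CACGTG, TGACGTCA (the cyclic AMP response element), GGGCGG (the GC box) and TATAAA (the TATA box), none of which overlapped another in these 2 windows. The Iyd window held the E-box form as its reverse complement CATCTG, 39 bases before the start, and TATAAA 29 bases before the start. These letters occurred in 14.4% and 12.4% of 32851 promoter windows of the same length. The C1ql2 window held no match to any of the 5, and its GC content was 68.8%, against 48.4% for Iyd and a median of 52.4% over all windows. Of the 10 members, 8 had a RefSeq entry, and Rgs14 and Map3k15 had none. GC boxes were present in windows of Wfs1, Fibcd1, Mpped1, Amigo2 and Dsp, and in 32.7% of all windows. The Wfs1 window also held CATCTG, 170 bases before its start.

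Libraries held 12802267 to 36686413 counts in genes at 8 months and 12992547 to 17575615 at 10 months. The strain labels were checked with Thy1, which was higher in 3xTg mice at both ages (log2 fold change 1.84 at 8 months and 1.48 at 10 months), and with App (0.42 and 0.37), all with edgeR adjusted p under 0.05. A gene is said to be called where the p-value of edgeR's quasi-likelihood test on the counts, adjusted over all tested genes, was under 0.05. All 5 excitatory neuron markers and all 10 members were detected in every library. WT-8M 1 stood apart, with the lowest summed level of the 3 CA2 members. This was 72.6 in counts-per-million (CPM), against 98.7 to 131 in the other 22 libraries. Its summed level of 4 striatal markers was the highest (40.2, against 12.8 to 26.5). It also had the highest sum of 4 ventral pole markers (264 CPM) and the lowest sums of CA2 and CA3 markers outside the members (97.6 and 123). Over all libraries, summed levels ran from 116 to 174 CPM for 5 neocortical markers and from 47.8 to 75.0 for 7 thalamic markers. The summed level of 8 choroid plexus markers ranged from 29.8 to 371 CPM and was highest in 3xTg-8M 4, WT-S 2 and 3xTg-S 2.

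Levels of the 10 genes are given as CPM scaled by the trimmed mean of M-values over all libraries. Per length, as CPM per kilobase of exon, the mean level over the 23 libraries ran from Mpped1 (42.5), Wfs1 (29.5), Fibcd1 (24.0), C1ql2 (22.4) and Rgs14 (18.9) through Amigo2 (10.1) and Dsp (5.37) to Iyd (2.21), Tdo2 (2.13) and Map3k15 (0.839). The 3 CA1 genes were thus the 3 highest. Iyd rested on 10 to 166 counts a library and Map3k15 on 40 to 119, whereas Mpped1 rested on 2016 to 7477, so the first 2 carry the largest counting error. Across libraries the ratio of highest to lowest CPM was 1.41 for Mpped1 and 8.24 for Iyd.

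**Figure D1:**
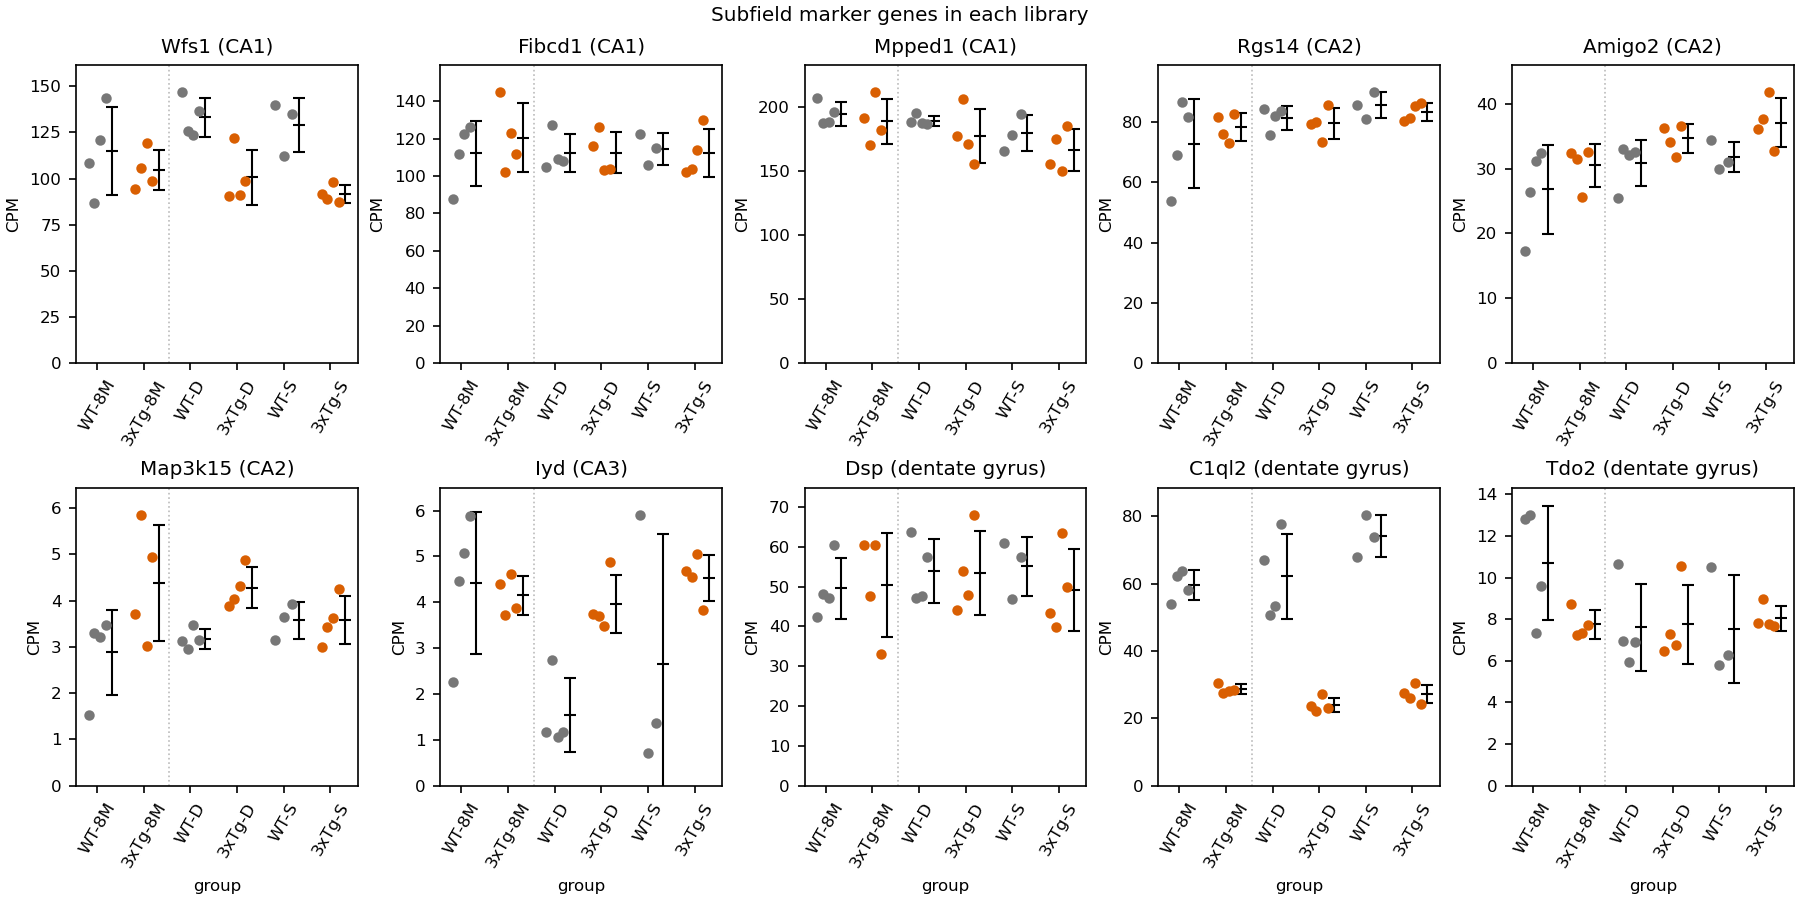
Level of each member in each library, in CPM on a linear axis from 0, by group. Grey points are WT and orange points 3xTg libraries, black marks give the mean ± SD, and a dotted line parts 8 from 10 months; the SD of Iyd in WT-S reaches below the axis. C1ql2 lay between 22.3 and 30.6 in all 3xTg libraries and between 50.7 and 80.4 in all WT libraries.

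The CA1 genes encode wolframin, an endoplasmic reticulum membrane protein mutated in Wolfram syndrome (Wfs1), a transmembrane receptor that binds acetylated sugars (Fibcd1) and a putative metallophosphoesterase (Mpped1). Wfs1 was lower in 3xTg mice at 10 months, and Fibcd1 and Mpped1 were not called. Wfs1 (ENSMUSG00000039474.13, chr5:36966104-36989205 on GRCm38, minus strand) was at 147, 126, 124 and 136 CPM in WT-D and at 90.7, 122, 91.1 and 98.6 in 3xTg-D. It was at 140, 112 and 135 CPM in WT-S and at 91.4, 89.0, 98.3 and 87.5 in 3xTg-S. The groups did not overlap within either infusion, although 3xTg-D 2 (122) lay above WT-S 2 (112). The log2 fold change of 3xTg-S against WT-S was -0.50 ± 0.08 (SE, n = 4 and 3, edgeR quasi-likelihood adjusted p = 0.00785), and that of 3xTg-D against WT-D was -0.40 ± 0.09 (n = 4 and 4, adjusted p = 0.0632). Over both infusions, with treatment in the model, it was -0.44 ± 0.06 (n = 8 and 7, adjusted p = 0.000234, 95% interval -0.58 to -0.31).

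At 8 months Wfs1 was at 109, 86.5, 121 and 143 CPM in WT-8M and at 94.5, 106, 119 and 98.7 in 3xTg-8M. The groups overlapped, and the log2 fold change was -0.13 ± 0.13 (SE, n = 4 and 4, edgeR adjusted p = 0.637). Whether the strain difference itself differed between ages was not tested, since age, surgery, infusion and the L in the sample titles change together. The call for 3xTg-S against WT-S was lost when runs of 4 consecutive animal numbers were added as a block (adjusted p = 0.124, log2 fold change -0.50).

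Fibcd1 had group means from 112 ± 17.3 CPM (SD, n = 4, WT-8M) to 121 ± 18.2 (n = 4, 3xTg-8M). Its strain difference at 10 months was -0.01 on the log2 scale, with a 95% interval of -0.14 to 0.12. Mpped1 group means ran from 194 ± 9.20 CPM (n = 4, WT-8M) to 166 ± 16.5 (n = 4, 3xTg-S), with every neighbouring pair of groups overlapping. Its values in 3xTg-S (155, 175, 150 and 185 CPM) lay below those in WT-D (188, 195, 187 and 186), with a log2 fold change of -0.18 ± 0.07 that did not pass the adjusted test (edgeR adjusted p = 0.196). The log2 difference between Wfs1 and Fibcd1 CPM within a library averaged 0.25 in WT-D and 0.17 in WT-S, against -0.16 in 3xTg-D and -0.29 in 3xTg-S.

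The CA2 genes encode a scaffold that regulates G protein signalling and limits synaptic potentiation in CA2 (Rgs14), a leucine-rich repeat adhesion protein (Amigo2) and a kinase of the apoptosis signal-regulating kinase family (Map3k15). None of the 3 passed the adjusted test in any comparison. Rgs14 had group means from 72.8 ± 14.7 CPM (SD, n = 4, WT-8M) to 85.6 ± 4.36 (n = 3, WT-S). Its strain difference at 10 months was -0.03 on the log2 scale (95% interval -0.12 to 0.05).

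Amigo2 was at 25.5, 33.1, 32.1 and 32.5 CPM in WT-D and 34.4, 29.9 and 31.0 in WT-S. In 3xTg mice it was at 36.3, 34.1, 31.8 and 36.5 (3xTg-D) and 36.0, 37.7, 41.8 and 32.7 (3xTg-S). The strains overlapped between 31.8 and 34.4 CPM. The log2 difference at 10 months was 0.20 ± 0.06 (SE, n = 8 and 7, edgeR adjusted p = 0.0685), just outside the threshold.

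Map3k15, on the X chromosome, was at 3.13, 2.95, 3.47 and 3.14 CPM in WT-D and at 3.88, 4.03, 4.32 and 4.89 in 3xTg-D. These groups did not overlap, with a log2 fold change of 0.44 ± 0.14 (SE, n = 4 and 4, edgeR adjusted p = 0.188). With the inhibitor the strains were at 3.14, 3.65 and 3.93 CPM (WT-S) and 3.00, 3.44, 3.63 and 4.24 (3xTg-S), and overlapped. The interaction of strain and inhibitor was -0.44 ± 0.21 (edgeR adjusted p = 1). At 8 months Map3k15 was at 1.52, 3.31, 3.21 and 3.48 CPM in WT-8M and at 3.71, 5.85, 3.03 and 4.94 in 3xTg-8M, which overlapped. The log2 fold change was 0.64 ± 0.28 (adjusted p = 0.271), and 0.31 without WT-8M 1 and 3xTg-8M 4 (adjusted p = 0.527). Without these 2 libraries the estimates at 8 months were -0.00275 for Amigo2, against 0.21 with them, and -0.04 for Rgs14, against 0.12.

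Iyd encodes iodotyrosine deiodinase, which recovers iodide in the thyroid, and is a marker of CA3 in the hippocampus. It was higher in 3xTg than in WT mice after the vehicle infusion and was not called at 8 months. Iyd (ENSMUSG00000019762.4, chr10:3540240-3554877 on GRCm38, plus strand) was at 1.16, 2.75, 1.07 and 1.17 CPM in WT-D and at 3.73, 3.70, 3.49 and 4.89 in 3xTg-D. The groups did not overlap, and the log2 fold change was 1.37 ± 0.28 (SE, n = 4 and 4, edgeR adjusted p = 0.032). In WT-S the values were 5.91, 0.716 and 1.36 CPM, and in 3xTg-S 4.69, 4.54, 5.04 and 3.84. WT-S 1 held the highest Iyd level of all 23 libraries and WT-S 2 the lowest.

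With all 7 libraries the log2 fold change of Iyd in 3xTg-S against WT-S was 0.78 ± 0.48 (SE, edgeR adjusted p = 0.637), and without WT-S 1 it was 2.12 (adjusted p = 0.00152). Against WT-D, 3xTg-S was higher by 1.57 ± 0.26 (n = 4 and 4, adjusted p = 0.00726). Over both infusions the strain difference was 1.08 ± 0.31 (n = 8 and 7, adjusted p = 0.0391, 95% interval 0.44 to 1.73). At 8 months, WT-8M was at 2.27, 4.46, 5.08 and 5.89 CPM and 3xTg-8M at 4.39, 3.73, 4.62 and 3.87. The groups overlapped, with a log2 fold change of -0.06 ± 0.25 (n = 4 and 4, adjusted p = 0.928). The 3xTg libraries thus lay between 3.49 and 5.04 CPM in all 3 groups, whereas 6 of 7 WT libraries at 10 months were at 2.75 or below.

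The calls for Iyd in 3xTg-D against WT-D and over both infusions were less secure than those for C1ql2 or Wfs1. The Iyd call in 3xTg-S against WT-D held under 15 of 16 alternatives. Its call in 3xTg-D against WT-D held under 8 of 16 alternatives, and was lost without WT-D 1, WT-D 3, WT-D 4, 3xTg-D 1, 3xTg-D 2 or 3xTg-D 4 (log2 fold changes 1.24 to 1.40, adjusted p from 0.0707 to 0.0887). It was also lost with a choroid plexus score as covariate (1.38, adjusted p = 0.204) and with all 15 libraries in one fit (1.37, adjusted p = 0.126). The call over both infusions held under 9 of 22 alternatives. Without WT-S 1 that difference was 1.63 (adjusted p = 0.000112).

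The dentate genes encode desmoplakin, a desmosome component enriched in granule cells (Dsp), a secreted C1q-like protein that organises mossy fibre synapses (C1ql2), and tryptophan dioxygenase, which opens the kynurenine pathway and is found in mature granule cells (Tdo2). C1ql2 was lower in 3xTg mice at both ages and in both infusions, and Dsp and Tdo2 were not called in any comparison. C1ql2 (ENSMUSG00000036907.9, chr1:120340582-120343174 on GRCm38, plus strand) was at 54.0, 62.4, 63.9 and 58.2 CPM in WT-8M and at 30.6, 27.4, 28.0 and 28.6 in 3xTg-8M. In WT-D it was at 67.0, 50.7, 53.3 and 77.7 CPM and in 3xTg-D at 23.6, 22.3, 27.2 and 23.03. In WT-S it was at 68.0, 80.4 and 73.9 CPM and in 3xTg-S at 27.4, 26.1, 30.6 and 24.4. No 3xTg library reached the lowest WT library.

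The log2 fold change of C1ql2 was -1.04 ± 0.07 at 8 months (SE, n = 4 and 4, edgeR adjusted p = 6.48e-06), a level of 0.486 times that of WT. It was -1.37 ± 0.13 in 3xTg-D against WT-D (n = 4 and 4, adjusted p = 0.000101) and -1.45 ± 0.08 in 3xTg-S against WT-S (n = 4 and 3, adjusted p = 3.13e-06). Over both infusions it was -1.41 ± 0.08 (n = 8 and 7, adjusted p = 1.08e-09, 95% interval -1.58 to -1.23). Each of these calls was kept under every alternative run for it, and at 8 months the value was -1.09 without WT-8M 1 and 3xTg-8M 4 (adjusted p = 7.87e-06).

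Dsp had group means between 49.2 ± 10.4 CPM (SD, n = 4, 3xTg-S) and 55.1 ± 7.36 (n = 3, WT-S). Its strain difference was 0.03 on the log2 scale at 8 months (95% interval -0.33 to 0.40) and -0.08 at 10 months (-0.30 to 0.14). Tdo2 was at 12.8, 13.0, 7.32 and 9.58 CPM in WT-8M and at 8.75, 7.22, 7.34 and 7.74 in 3xTg-8M. The groups overlapped, and the log2 fold change of -0.45 ± 0.17 did not pass the adjusted test (edgeR adjusted p = 0.203). At 10 months its strain difference was 0.06 (95% interval -0.25 to 0.36). The 3 dentate members therefore did not move together: the log2 difference between C1ql2 and Dsp within a library averaged 0.27, 0.19 and 0.43 in WT-8M, WT-D and WT-S, against -0.77, -1.14 and -0.84 in 3xTg-8M, 3xTg-D and 3xTg-S.

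**Figure D2:**
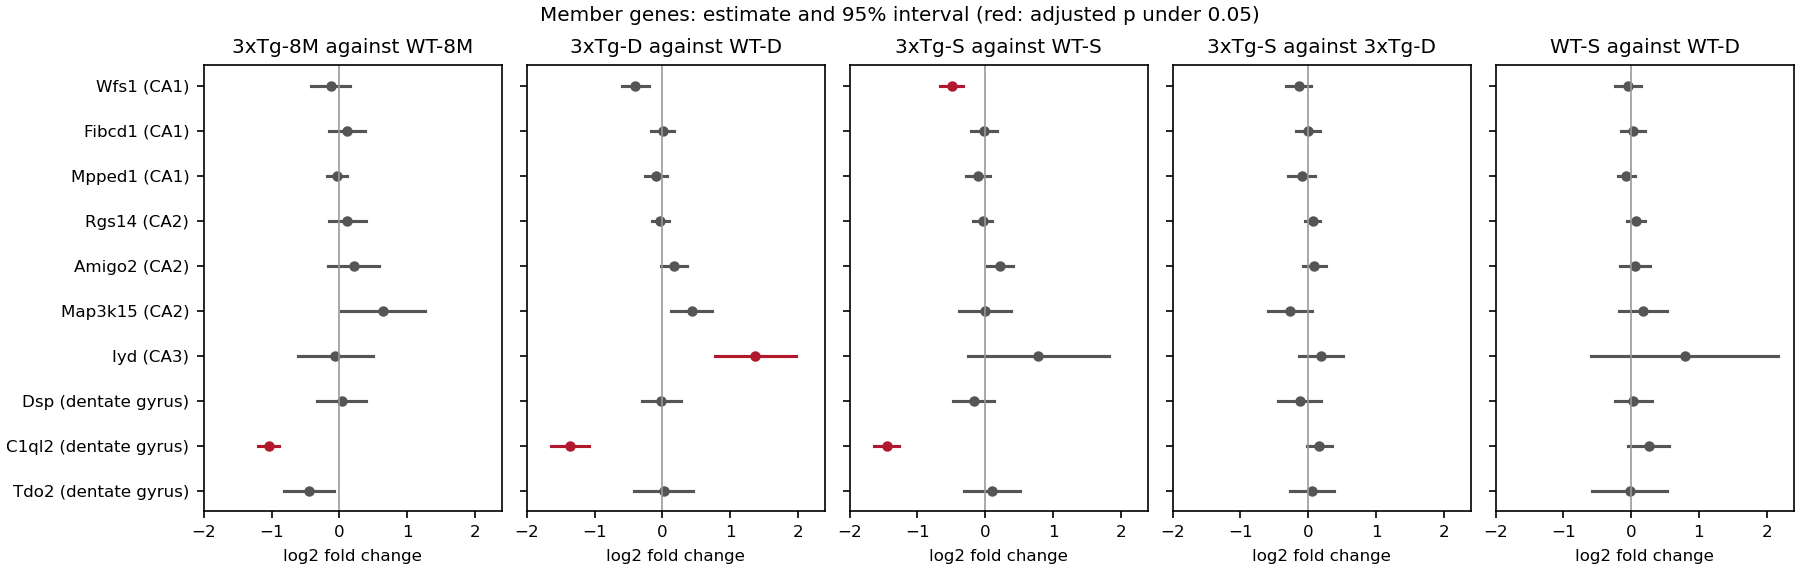
Log2 fold change of each member (point) with its 95% interval (line) in 5 comparisons, where red marks an edgeR adjusted p under 0.05. C1ql2 was called in each of the 3 strain comparisons (-1.04, -1.37 and -1.45), Iyd in 1 (1.37) and Wfs1 in 1 (-0.50), and no member was called in either inhibitor comparison.

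Counted together, 1 of 10 members was called in 3xTg-8M against WT-8M, where 2.58% of 15483 tested genes were called. In 3xTg-D against WT-D 2 of 10 were called (1.39% of 15528 genes), in 3xTg-S against WT-S 2 of 10 (1.32% of 15664) and in 3xTg-S against WT-D 3 of 10 (2.29% of 15567). Over both infusions 3 of 10 were called, 1 higher and 2 lower, where 6.53% of 16262 genes were called, 3.17% higher and 3.36% lower. At the unadjusted p under 0.01 that the study used, 4 of 10 passed in 3xTg-D against WT-D (Wfs1, Map3k15, Iyd and C1ql2), as did 4.95% of genes. The median log2 fold change of the 10 was -0.00076 at 8 months and -0.021 over both infusions, and that of all tested genes was 0.0060 and -0.00061. Groups did not overlap for 1 member at 8 months (10.5% of genes), 4 in 3xTg-D against WT-D (8.05%) and 2 in 3xTg-S against WT-S (10.2%). Comparisons that share a control group, such as those of 3xTg-D and 3xTg-S with WT-D, are not independent of each other.

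Other markers of the same fields, from a list that leaves out the members, were read beside them. The lists were chosen with earlier results of these data known, so they are not an independent check. Of 7 other dentate markers, all 7 had lower estimates in 3xTg mice at 10 months, with a median log2 fold change of -0.25. Of all tested genes 3.36% were called lower there, and of the 7 markers 4 were (edgeR adjusted p under 0.05). These were Prox1, the transcription factor that sets granule cell identity (-0.25 ± 0.07, SE, edgeR adjusted p = 0.0426), Stxbp6 (-0.29 ± 0.06, adjusted p = 0.00584), Lct (-0.46 ± 0.11, adjusted p = 0.0127) and Pdyn, which encodes prodynorphin (-0.33 ± 0.09, adjusted p = 0.037). The others were Trpc6 (-0.06), Dock10 (-0.20) and C1ql3, a relative of C1ql2 (-0.16, adjusted p = 0.0652). At 8 months 6 of the 7 had lower estimates and none was called by edgeR (2 at an unadjusted p under 0.05, as for 17.4% of all genes), with a median of -0.22. Prox1 was at 115 to 148 CPM in WT-D and 102 to 124 in 3xTg-D, which overlapped, unlike C1ql2.

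The decrease of C1ql2 was larger than that of the other dentate markers in size. The log2 difference between C1ql2 and Prox1 within a library lay between -1.22 and -0.64 in the WT libraries and between -2.42 and -1.41 in the 3xTg libraries, without overlap. No test was made of this difference.

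None of the other markers of CA1 (6 genes), CA2 (7) or CA3 (5) was called in the strain comparison at 10 months by edgeR (2, 3 and 2 at an unadjusted p under 0.05, as for 19.7% of all genes). All 6 CA1 markers had lower estimates, from -0.23 to -0.04 on the log2 scale, with a median of -0.18. Of the 5 CA3 markers 4 had higher estimates and 1 a lower one, with a median of 0.15, against 1.08 for Iyd. They were Grik4, a kainate receptor subunit (0.09), Nectin3, an adhesion protein (0.15), Coch (0.26), Loxl1 (0.44, adjusted p = 0.22) and Bok (-0.22, adjusted p = 0.105). The log2 difference between Iyd and Grik4 within a library averaged -5.03 in WT-D and -3.64 in 3xTg-D, and -3.48 in WT-8M and -3.56 in 3xTg-8M. At 8 months 4 of the 6 CA1 markers had lower and 2 higher estimates in 3xTg mice, with a median of -0.15, and Ndst4 alone was called (-0.49 ± 0.10, adjusted p = 0.0259). The highest estimate was that of Lefty1 (0.64, adjusted p = 0.185), which is named after its value was seen. Of 4 ventral pole markers Trhr alone was called at 10 months (0.52 ± 0.15, adjusted p = 0.0493).

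**Figure D3:**
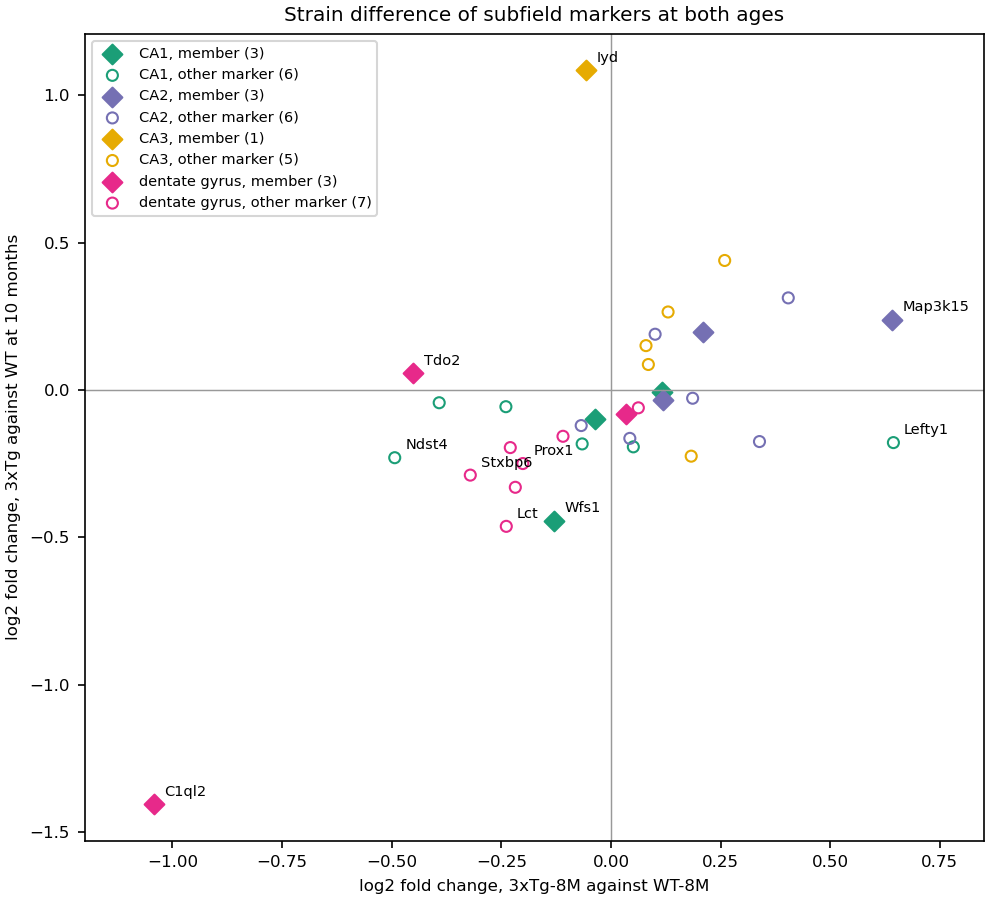
Log2 fold change of 3xTg against WT at 8 months (horizontal axis) and at 10 months over both infusions (vertical axis), for the members (filled diamonds) and other markers of the same fields tested at both ages (open circles), coloured by field. C1ql2 sits at -1.04 and -1.41, Iyd at -0.06 and 1.08, and the 7 other dentate markers lie between -0.46 and -0.06 on the vertical axis.

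Markers of other cells also moved with strain. At 10 months, over both infusions, 3 of 5 microglial markers were called higher in 3xTg mice (Tmem119 by 0.36, Csf1r by 0.29 and C1qa by 0.47 on the log2 scale). Among mice given vehicle, 1 of the 5 was called higher in 3xTg mice. In 3xTg-S mice 1 was called higher relative to WT-S, and 2 relative to WT-D. All 5 microglial markers had higher estimates in each of these comparisons. At 8 months 0 were called, with 4 higher and 1 lower in estimate. Of 4 striatal markers 1, Rgs9, was lower at 10 months (-0.50, and -1.14 at 8 months). All 5 oligodendrocyte markers had higher estimates in 3xTg-S against WT-S, where 1 of the 5 was called. The same 5 were higher in estimate in 3xTg-S against WT-D, where 2 were called, among them Mbp, a myelin protein gene (0.43, edgeR adjusted p = 0.0283). Their summed level was 4785 to 5495 CPM in 3xTg-S, against 3216 to 4146 in WT-S, 3439 to 4356 in WT-D and 2674 to 4871 in 3xTg-D. In 3xTg-D against WT-D none of the 5 was called by edgeR or passed an unadjusted p under 0.05, while 1 of 5 interneuron markers, Pvalb, was lower (-0.36, adjusted p = 0.0176). Over both infusions 0 of the 5 oligodendrocyte markers were called, and 2 were higher at an unadjusted edgeR p under 0.05. Of the 5 interneuron markers 0 were called there, and 3 were lower at that p, which 19.7% of all genes passed. In 3xTg-S against WT-D 0 interneuron markers were called, although all 5 had lower estimates and 2 passed that p. Of 8 choroid plexus markers 7 were tested over both infusions, and 0 were called. In 3xTg-D against WT-D 3 were tested and 0 called, but all 3 were higher at an unadjusted edgeR p under 0.05 (median log2 fold change 1.02). In 3xTg-S against WT-S 5 were tested, all with lower estimates and 0 at that p. Summed levels of the 8 were 33.4 to 42.6 CPM in WT-D, 37.4 to 123 in 3xTg-D, 34.4 to 362 in WT-S and 33.4 to 248 in 3xTg-S. C1ql2 and Wfs1 kept their calls at 10 months with the choroid plexus score as covariate. The part of the microglial, oligodendrocyte, interneuron and striatal markers in the member differences was not tested.

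No member was called for the inhibitor, which compares SCDi with vehicle infusion. This held in 3xTg mice, in WT mice, over both strains and for the interaction of strain and inhibitor, and in each of these comparisons 0% of genes were called by edgeR. At an unadjusted p under 0.05, 1 member was found over both strains (13.6% of 16262 genes), and 0 in either strain alone (11.2% of genes in 3xTg and 3.42% in WT mice). The 1 member was C1ql2, at 0.21 ± 0.08 on the log2 scale (adjusted p = 0.288, 95% interval 0.04 to 0.39). Its estimate was 0.17 in 3xTg-S against 3xTg-D and 0.26 in WT-S against WT-D, and the interaction was -0.09 ± 0.17 (adjusted p = 1).

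The intervals show what the inhibitor comparison could resolve. Over both strains they were -0.23 to 0.04 for Wfs1, -0.12 to 0.14 for Fibcd1 and -0.21 to 0.03 for Mpped1 on the log2 scale. For CA2 they were -0.01 to 0.15 (Rgs14), -0.06 to 0.20 (Amigo2) and -0.30 to 0.17 (Map3k15), and for dentate Dsp -0.28 to 0.17 and Tdo2 -0.29 to 0.33. Iyd was the least resolved, at 0.42 ± 0.30 with an interval of -0.21 to 1.05. The markers left out of the members gave 0 calls for the inhibitor in any field.

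Covariation was read from log2 CPM after subtracting each group's mean, over 23 libraries that share sequencing depth and tissue block among all genes, and is given without a test. The 3 CA2 genes varied together (Pearson's r of 0.76 for Rgs14 with Amigo2, 0.69 for Rgs14 with Map3k15 and 0.63 for Amigo2 with Map3k15). The 3 CA1 pairs had r of 0.22 to 0.32. Among dentate genes C1ql2 had r of 0.23 with Dsp and -0.09 with Tdo2. Over all 9 pairs within a field the median r was 0.32, and over 36 pairs between fields it was 0.10. These medians were 0.203 and 0.236 in the 8 libraries of 8 months alone, and 0.265 and 0.038 in the 15 of 10 months. Without WT-8M 1 and 3xTg-8M 4 these medians were 0.23 and -0.03, and the 3 CA2 pairs fell to 0.37, 0.23 and 0.13. In the 15 libraries of 10 months alone r was 0.02 for Rgs14 with Amigo2, 0.51 for Rgs14 with Map3k15 and -0.23 for Amigo2 with Map3k15. WT-8M 1 had the lowest level of all 23 libraries for Rgs14 (53.8 CPM), Amigo2 (17.3), Map3k15 (1.52) and Fibcd1 (87.8), and 3xTg-8M 4 the lowest for Dsp (33.1).

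**Figure D4:**
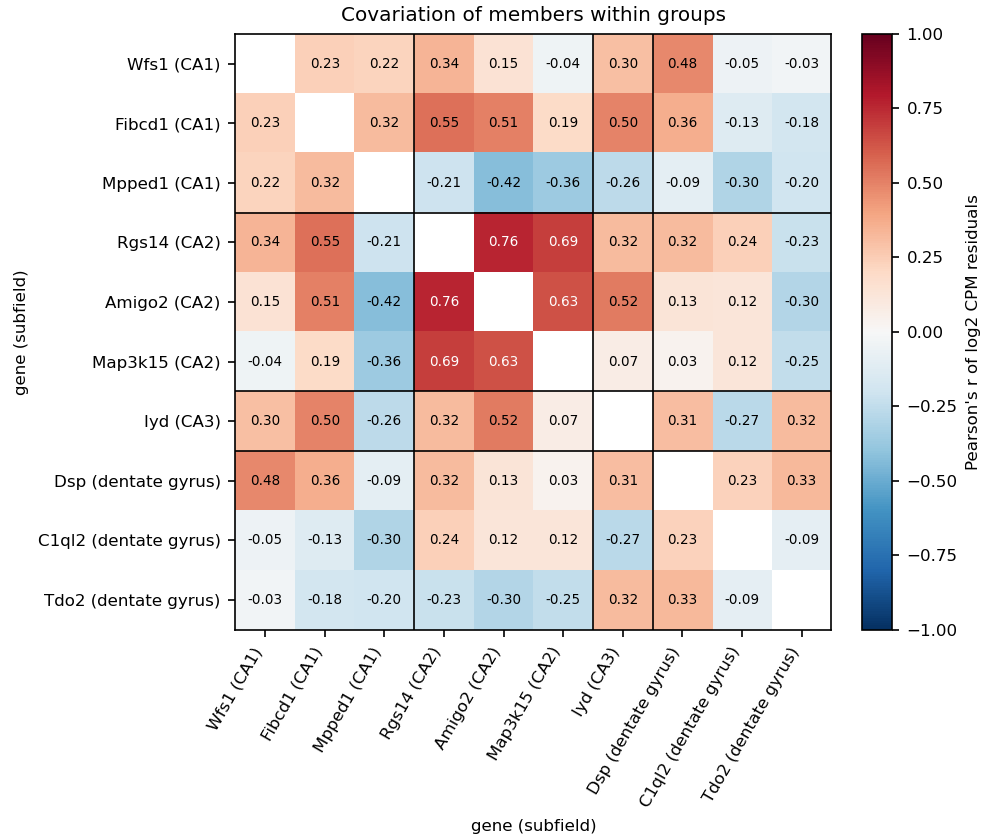
Pearson's r between members, from log2 CPM with group means subtracted, over 23 libraries. Red is positive and blue negative, and black lines part the fields. The CA2 block holds the 3 highest values (0.63 to 0.76), which were -0.23 to 0.51 at 10 months alone, and Mpped1 was at -0.21 to -0.42 with the CA2 genes.

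The genes most like each member were ranked by the same r among 14621 genes (mean level 1 CPM or higher). For Rgs14 they were Cnih2 (r = 0.92), Lrrc10b (0.92) and Lefty1 (0.90), and for Amigo2 they were Bok (0.94), Lrrc10b (0.88) and Ly6e (0.88). At 10 months alone, in 15 libraries, Rgs14 had r of 0.79 with Lrrc10b and 0.58 with Cnih2, and Amigo2 had 0.83 with Bok. Map3k15 was most like Tex261 (0.84) and Cacng5 (0.80), the latter a CA2 marker. Lefty1 stood on the CA1 list used here and Bok on the CA3 list.

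For CA1, Fibcd1 was most like Lrrtm1 (0.84), Mpped1 most like Fezf2 (0.80), a gene listed as a neocortical marker, and Wfs1 most like Slc25a42 (0.70). Iyd was most like Kcnn2, a potassium channel gene (0.86), at 0.99 in the 8 libraries of 8 months and 0.84 in the 15 of 10 months. Dsp was most like Fam168a (0.90) and Kalrn (0.88), and Tdo2 most like Gm11942 (0.83). The best match of C1ql2, Gss (0.73), was the second lowest of the 10, and its other nearest genes were Zfp418 (0.71) and Nfatc1 (0.70).

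Genes within 1 Mb of each member were counted to show whether a called member lay among other called genes. Around C1ql2, 4 of 13 tested neighbours were called in the strain comparison at 10 months, namely Tmem37 (log2 fold change 1.21), Gm37174 (0.63), Inhbb (0.37) and Dbi (-0.33). At 8 months 0 of 12 tested neighbours of C1ql2 were called. The median size of the neighbours' log2 fold change, without sign, was 0.16 at 10 months and 0.14 at 8 months. Over all tested genes it was 0.079 and 0.12. The part of the surrounding region in the C1ql2 difference was not tested. Around Wfs1 1 of 20 was called (Sorcs2, -0.19) and around Iyd 0 of 9. The share over all genes was 6.53% at 10 months and 2.58% at 8 months.

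When groups were ordered by mean level, each WT group was above each 3xTg group for C1ql2 and for Wfs1. Only C1ql2 had neighbouring groups in its order that did not overlap, and these were WT-8M and 3xTg-8M. Its order was WT-S 74.1, WT-D 62.2 and WT-8M 59.6 CPM, then 3xTg-8M 28.7, 3xTg-S 27.1 and 3xTg-D 24.0. For Wfs1 the order was WT-D, WT-S, WT-8M, 3xTg-8M, 3xTg-D and 3xTg-S, but every neighbouring pair overlapped. For the other 8 members too, every neighbouring pair of groups in the order overlapped.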

How the data were processed

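Total RNA of whole hippocampus was sequenced from polyadenylated RNA with UMI adapters. According to the study's methods and the submitters' processing notes, the authors trimmed reads with Trimmomatic 0.35, aligned them to GRCm38 with STAR 2.5.1b and counted reads per gene of Gencode M23. The deposited values are raw counts per gene, not normalized, and the strand setting is not given in the sources used here. The row of reads assigned to no gene (24.68 to 30.87% of counts) was left out.

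Here, counts were tested with edgeR 4.0.16 in R 4.3.3 (filterByExpr, TMM factors per comparison, glmQLFit and glmQLFTest), with Benjamini-Hochberg adjustment over all genes and a threshold of 0.05. SE is the log2 fold change divided by the square root of F. At 10 months strain, inhibitor and their interaction were tested over 15 libraries. All 10 members passed the filter. The named genes are the members, their 3 most like genes and the called genes of each field's list. Exon lengths came from Gencode M21. Intervals give the uncertainty of the estimated log2 fold change, from the variation between the animals sampled, and not the range of single libraries. Scripts were tested on simulated data. Members and lists were chosen with earlier results of these data known. Alternatives used DESeq2 1.42.0, other size factors, no filter, a length and GC trend, a choroid plexus covariate, an animal-number block and each library left out. One item of the 3xTg genotype and some genes of the lists are not reported here.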

Additional observations from a re-analysis of the deposited data

Results flagged for a closer look

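In 5 of the 50 combinations of a member and a group of 4 libraries, 1 library lay far from the other 3, by Dixon's test at 95%. Chance alone marks about 1 group in 20. Amigo2 was at 25.6 CPM in 3xTg-8M 3, against 31.4 to 32.5 in the others of its group, and at 25.5 in WT-D 1, against 32.1 to 33.1. Map3k15 was at 1.52 CPM in WT-8M 1, against 3.21 to 3.48. Iyd was at 2.75 CPM in WT-D 2, against 1.07 to 1.17. Tdo2 was at 8.96 CPM in 3xTg-S 2, against 7.68 to 7.81. WT-S, with 3 libraries, was not examined in this way, although Iyd there ran from 0.716 to 5.91 CPM.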

How the results depend on the processing

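Of 90 log2 fold changes (10 members in 9 comparisons), 11 were called, 7 of these kept the call under every alternative run, and 4 lost it under some (Iyd in 3 comparisons and Wfs1 in 3xTg-S against WT-S). No called value changed sign, while 36 of the 79 values not called did under some alternative. For 3xTg-D against WT-D, where 2 members were called, 4 passed an unadjusted p under 0.01, 1 was left with the choroid plexus score as covariate, and leaving out each library in turn gave 1 to 2. For 3xTg-S against WT-S, where 2 were called, 1 was left with the animal-number block. The cause was not tested. Values not called that passed under some alternative were Wfs1 and Map3k15 in 3xTg-D against WT-D, Iyd in 3xTg-S against WT-S and Amigo2 over both infusions.

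Without WT-8M 1 and 3xTg-8M 4, a setting chosen after seeing the data, 1 member was called at 8 months. The labels give groups no shared replicate numbers; runs of 4 consecutive animal numbers, which hold 1 mouse of each group at 10 months (the first run none of WT-S), were fitted as a block, and it changed no other member call than that of Wfs1 in 3xTg-S against WT-S. Counts of all genes called moved more than members: 216 to 99 in 3xTg-D against WT-D with the covariate, and 206 to 78 in 3xTg-S against WT-S with the block. Groups of 3 or 4 animals and 10 to 166 counts a library limit what can be said of Iyd.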
